A study of Mus musculus with 4 samples.

Results

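The genes of integrin chains, laminin chains and other matrix receptors were examined in 4 mouse pancreatic cancer cell lines. The set held 19 integrin chains, 10 laminin chains and the receptor genes Cd44, Cd151 and Dag1. These 32 genes were chosen by family and matched to the gene symbols of the array. Each of the 32 was read from 1 transcript cluster, and together they are 32 of the 19938 genes with a symbol of their own. All values below are log2 signals, so a log2 difference of 1 is a 2-fold difference. The signal of one gene cannot be set against that of another, because each gene is read by its own probes.

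The lines K459 and TCPA18654 were grown from pancreatic tumours of TPAC mice, and the lines TPC20223 and TPC18645 from those of TPC mice. Both genotypes carry Ela-TGFa, a transgene in which the elastase promoter drives TGF-α in the pancreas, the Cre allele that the labels spell Ptg1a+/CRE and the study calls p48-Cre, and Trp53fl/fl, from which Cre removes p53. The TPAC lines carry p65fl/fl in addition and so lose RelA/p65, a subunit of NF-κB. The tumours were digested, filtered and cultured with serum, with no treatment and no described sort of the cancer cells, and 1 array was run per line. Neither the age of the mice nor whether each line came from a mouse of its own is given in the sources used here. The p-values below set a difference between genotype means against the variation between lines of a genotype. With 1 array per line, this variation also holds the noise of the arrays. The p-values therefore describe these lines rather than mice. As the cultures were measured in bulk, fewer cells of a type and less RNA per cell cannot be told apart.

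Integrins are receptors made of 1 alpha and 1 beta chain that hold cells to the matrix and pass signals from it to the cytoskeleton through talin, kindlins and paxillin. Laminins are trimers of an alpha, a beta and a gamma chain and form the sheet of the basement membrane under epithelia and around Schwann cells of nerves. Epithelial cells typically bind laminin through the integrins α3β1 and α6β4, whereas fibroblast-like cells typically use the fibronectin receptor α5β1 and the collagen receptor α11β1.

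The medians of the arrays lay between 7.19 and 7.26. Rela, the gene targeted in TPAC mice, had log2 signals of 10.82 in K459 and 11.10 in TCPA18654, against 10.70 in TPC20223 and 11.12 in TPC18645. This cluster is read by probes spread over the whole transcript and the floxed exons were not looked at on their own, so these values are no check of the genotype. The line TPC20223 stood apart from the other lines in most epithelial markers. In this line 9 of 10 ductal and epithelial markers had their lowest signal, and the log2 of their summed signal was 15.58 in K459 and 15.06 in TCPA18654, against 11.53 in TPC20223 and 14.92 in TPC18645. For 6 of the 10 markers TPC20223 lay 1 or more below each other line. The marker that was not lowest there, Sox9, had 11.56 in K459 and 10.14 in TCPA18654, against 10.89 in TPC20223 and 10.21 in TPC18645. Epcam and Cldn4 were little lower in TPC20223 (6.43 and 6.93) than in TPC18645 (6.82 and 7.12). Of 13 mesenchymal and fibroblast markers, 10 had their highest signal in TPC20223, with a log2 summed signal of 14.57 in K459 and 14.59 in TCPA18654, against 15.40 in TPC20223 and 14.78 in TPC18645. For 3 of the 13 markers TPC20223 lay 1 or more above each other line. Krt19, the cytokeratin 19 gene, had a log2 signal of 12.65 in K459 and 11.79 in TCPA18654, against 6.08 in TPC20223 and 11.74 in TPC18645. The label of TPC20223 as pancreatic tumor cells was therefore not borne out by the ductal cytokeratin that marked the other lines, while Sox9 did not set this line apart. Its vimentin signal (Vim, 13.91) was close to that of the other lines (13.79 to 13.89). All 6 endothelial markers were dim, which here means a mean signal no higher than the 40th percentile over all genes, and so were 5 of 7 leukocyte markers, among them Ptprc. The 2 leukocyte markers that were not dim were Cd14, with 10.53 in K459 and 9.59 in TCPA18654, against 6.66 in TPC20223 and 9.66 in TPC18645, and Cd68, which was also lowest in TPC20223. Every difference between TPC20223 and another line that is given below is one between lines that also differ in these markers. The part of the markers in it was not tested.

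Integrin and laminin genes differed between lines more often than genes in general. Signal was not matched in this comparison, as 7 of the 32 genes were dim, against 7981 of all 19938 genes. The part of signal in it was not tested. The highest and the lowest line differed by a log2 difference of 1 or more for 17 of the 32 genes (53.1%), against 15.9% of all genes, and for 10 of them by 2 or more. Without TPC20223 the other lines differed by 1 or more for 7 of the 32 genes (21.9%), against 4.96% of all genes. The median of this spread over the lines was 1.21 for the 32 genes and 0.40 for all genes. Within this spread TPC20223 held the highest or the lowest signal in 13 of the 17 genes. The same share over all genes was not computed, so this count is not shown to be a trait of these genes. In the other 15 genes the lines lay within 0.17 to 0.91 of each other. Among these were Itgb1, the beta chain shared by most matrix-binding integrins, with log2 signals of 11.43 to 11.68, Itgav, the alpha chain of the vitronectin receptors, with 11.13 to 11.51, and Dag1, the dystroglycan gene, with 11.20 to 11.76.

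**Figure D1:**
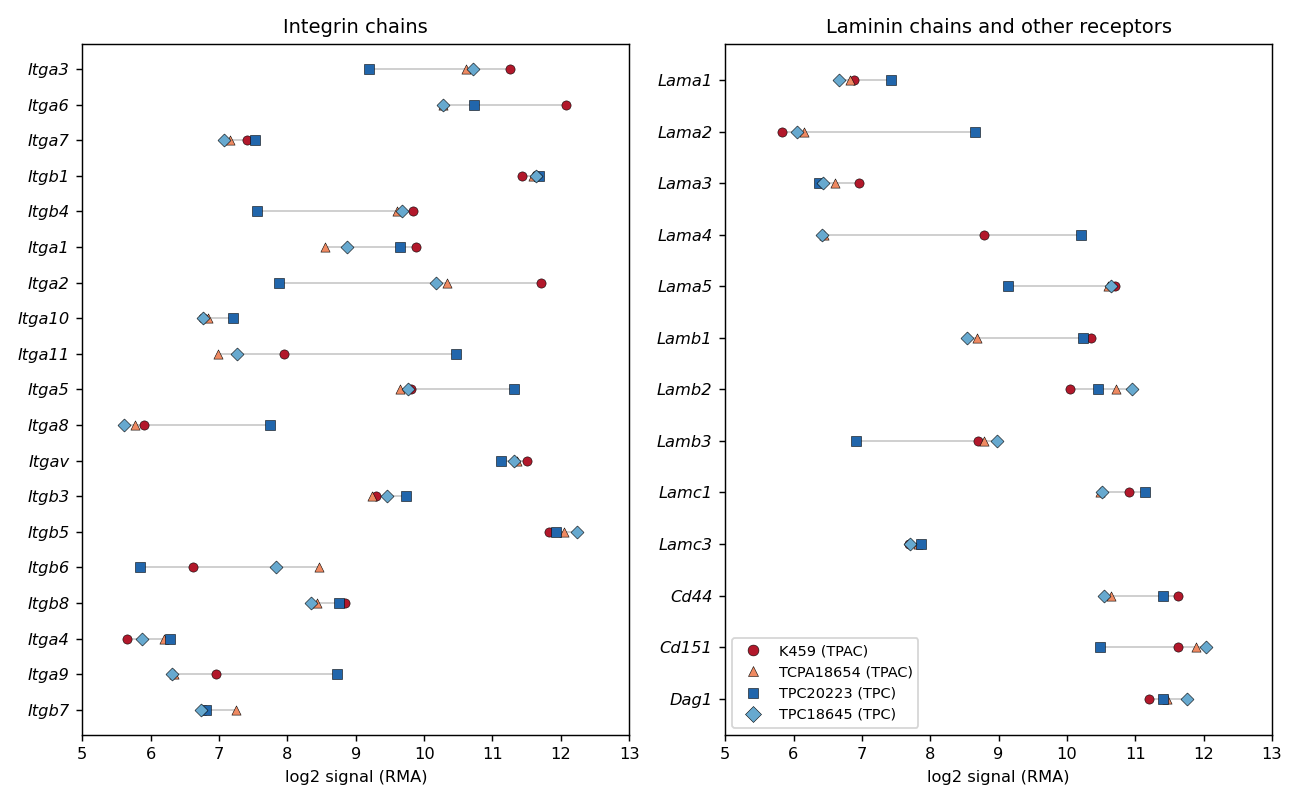
Log2 signal (RMA) of the 19 integrin chains (left) and of the laminin chains and other receptors (right) in the 4 lines, 1 array per line; points are lines, red for TPAC and blue for TPC, and grey bars join the lowest and highest line. TPC20223 lies apart from the other lines for Itga11, Itgb4, Lama2 and Lamb3, while the 4 lines nearly coincide for Itgb1 and Lamc3.

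The closest pair of lines for these genes crossed the genotypes. In the pair TCPA18654 and TPC18645, which carry different genotypes, 0 of 32 genes differed by 1 or more, against 0.271% of all genes (0.12% higher and 0.15% lower in TCPA18654), and the median size of the difference was 0.14 for the 32 genes and 0.12 for all genes. The widest gap of this pair was 0.62, for Itgb6. Between TPC20223 and TPC18645, which share a genotype, 14 of 32 (43.8%) differed by 1 or more, against 11.2% of all genes, with 7 higher and 7 lower in TPC20223 (all genes, 5.97% and 5.28%). Between the TPAC lines, 6 of 32 (18.8%) differed, against 3.87% of all genes, with 5 higher and 1 lower in K459 than in TCPA18654 (all genes, 2.62% and 1.25%). K459 differed from TPC20223 in 13 genes (40.6%), against 10.9% of all genes, with 7 higher and 6 lower in K459 (all genes, 5.11% and 5.79%). From TPC18645 it differed in 7 genes (21.9%), against 4.34% of all genes, with 6 higher and 1 lower in K459 (all genes, 2.6% and 1.74%). TCPA18654 differed from TPC20223 in 15 genes (46.9%), against 10.9% of all genes, with 7 higher and 8 lower in TCPA18654 (all genes, 4.55% and 6.33%). These pairs have 1 array on each side and share lines with each other, so the counts carry no test.

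**Figure D2:**
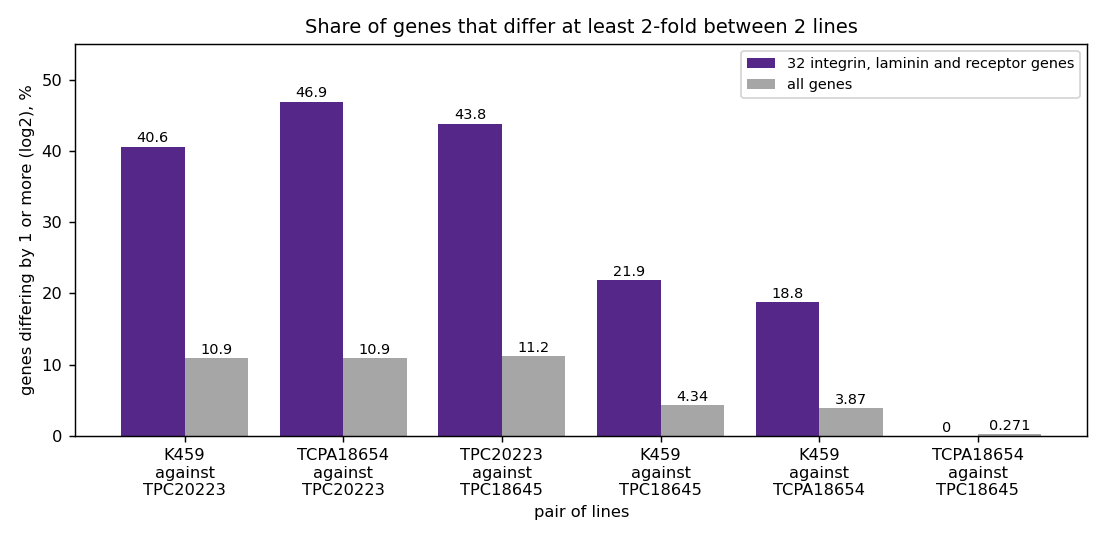
Share of genes, in percent, whose log2 signals differ by 1 or more in each of the 6 pairs of lines, for the 32 integrin, laminin and receptor genes (purple) and all 19938 genes (grey); each bar is a count from 2 arrays and has no error. The 3 pairs with TPC20223 hold 40.6 to 46.9% of the 32 genes and 10.9 to 11.2% of all genes, and TCPA18654 against TPC18645 holds 0% and 0.271%.

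A line was taken to stand alone for a gene when its log2 signal lay 1 or more above or below each of the other lines. TPC20223 stood above the others for 6 of the 32 genes (18.8%, against 4.24% of all genes) and below them for 6 (18.8%, against 2.95%). K459 stood above for 2 genes (6.25%, against 0.988%) and below for 0 (against 0.331%). TCPA18654 stood alone for 0 of the 32 genes in either direction, against 0.0201% of all genes above and 0.0602% below the others, and so did TPC18645, against 0.0251% and 0.0401%.

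**Figure D3:**
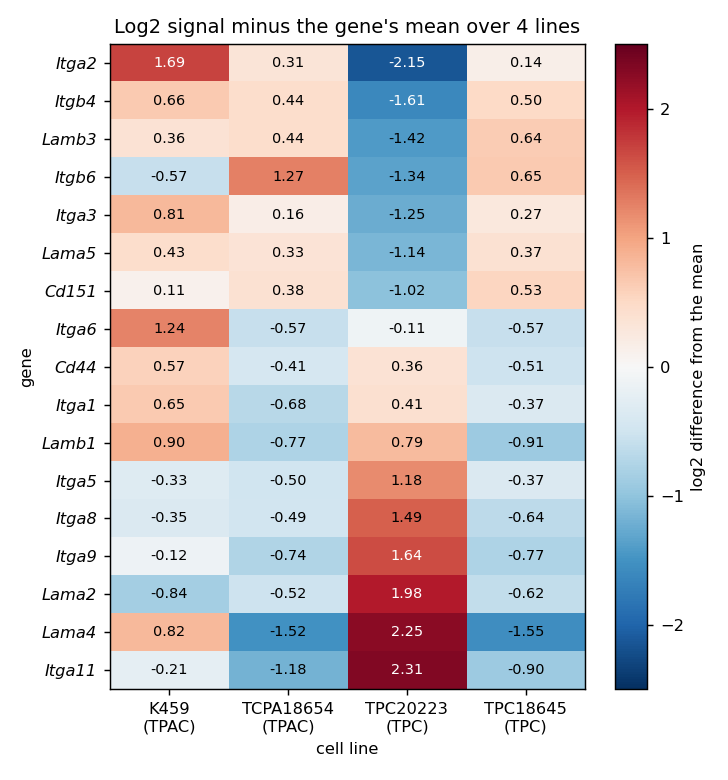
Log2 signal of each line minus the mean of the 4 lines for the 17 genes whose lines differ by 1 or more, ordered by the value in TPC20223; columns are lines, and red is above and blue below the mean. TPC20223 is the extreme line at both ends of the order, K459 is the highest line for Itga6, and TCPA18654 and TPC18645 have similar values throughout, with a widest gap of 0.62.

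Promoter windows of 6 genes are shown here because TPC20223 stood alone for these genes, with its signal below the others for Lamb3, Lama5 and Itga2 and above them for Itga11, Itga9 and Lama2. The first 4 windows were chosen among those that hold the motif described next, and those of Itga2 and Lama2 among those that do not. Each window runs from 250 bases before to 50 bases after a transcription start in RefSeq (GRCm38.p6), printed 5′ to 3′ on the strand of the gene. Capitals mark the E-box CACCTG on either strand (CAGGTG), the sequence that zinc finger factors of the Snail and Zeb families are known to bind; no other motif was searched.
Lamb3 (chr1:193301993-193302292, plus strand): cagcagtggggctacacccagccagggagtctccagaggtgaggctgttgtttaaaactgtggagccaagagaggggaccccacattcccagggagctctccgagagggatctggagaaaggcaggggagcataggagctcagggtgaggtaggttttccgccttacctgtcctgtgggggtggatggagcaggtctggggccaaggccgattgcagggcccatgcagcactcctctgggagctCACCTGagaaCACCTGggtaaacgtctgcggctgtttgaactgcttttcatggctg
Lama5 (chr2:180225810-180226109, minus strand): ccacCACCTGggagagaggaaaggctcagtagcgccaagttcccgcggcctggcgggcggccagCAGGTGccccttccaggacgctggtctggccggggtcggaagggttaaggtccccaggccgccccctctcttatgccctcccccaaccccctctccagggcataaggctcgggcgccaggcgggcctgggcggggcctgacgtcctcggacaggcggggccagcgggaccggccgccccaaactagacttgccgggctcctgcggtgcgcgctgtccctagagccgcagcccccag
Itga11 (chr9:62677605-62677904, plus strand): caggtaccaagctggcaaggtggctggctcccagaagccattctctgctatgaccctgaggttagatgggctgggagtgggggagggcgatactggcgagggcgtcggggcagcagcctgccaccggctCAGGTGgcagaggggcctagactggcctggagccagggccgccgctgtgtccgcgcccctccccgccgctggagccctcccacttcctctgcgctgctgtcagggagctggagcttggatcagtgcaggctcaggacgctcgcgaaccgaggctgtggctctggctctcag
Itga9 (chr9:118711442-118711741, plus strand): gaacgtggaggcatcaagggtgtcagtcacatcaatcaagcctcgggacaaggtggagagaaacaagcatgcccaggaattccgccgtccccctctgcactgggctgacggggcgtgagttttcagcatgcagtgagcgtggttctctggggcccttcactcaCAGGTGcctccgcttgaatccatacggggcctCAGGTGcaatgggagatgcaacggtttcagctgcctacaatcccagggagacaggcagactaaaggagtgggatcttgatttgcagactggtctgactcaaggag
Itga2 (chr13:114932051-114932350, minus strand): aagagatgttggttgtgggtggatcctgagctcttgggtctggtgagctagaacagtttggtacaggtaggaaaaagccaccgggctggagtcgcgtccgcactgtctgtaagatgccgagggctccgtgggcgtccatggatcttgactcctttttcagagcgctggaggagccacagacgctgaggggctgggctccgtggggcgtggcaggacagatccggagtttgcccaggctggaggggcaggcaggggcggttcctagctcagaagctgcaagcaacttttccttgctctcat
Lama2 (chr10:27616893-27617192, minus strand): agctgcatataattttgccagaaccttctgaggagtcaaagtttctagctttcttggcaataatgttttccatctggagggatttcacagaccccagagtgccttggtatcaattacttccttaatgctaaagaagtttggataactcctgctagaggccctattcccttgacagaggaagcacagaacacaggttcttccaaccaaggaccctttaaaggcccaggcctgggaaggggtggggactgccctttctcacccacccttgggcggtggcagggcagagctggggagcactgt
Lamb3, Lama5 and Itga9 held 2 matches in the window, Itga11 held 1 and Itga2 and Lama2 held 0. RefSeq windows were found for 23 of the 32 genes, 28 windows in all, since some genes have more than 1 start. Of these windows 9 (32.1%) held the E-box, and of all 32851 windows 6640 (20.2%) did. Lamb3, Itga3 and Cd151 each have a second window without a match. Of the 6 genes with TPC20223 alone below the other lines, 5 had a window and 4 of these held the E-box in at least 1 (Lamb3, Lama5, Itga3 and Cd151, but not Itga2). Of the 6 genes with TPC20223 alone above, 5 had a window and 2 of these held it (Itga11 and Itga9, but not Itga5, Itga8 and Lama2). Each of these 5 genes with TPC20223 above has 1 window only, whereas a gene with 2 windows has 2 places for a match. The share of all genes with a match in at least 1 window was not computed, so the counts by gene have no background. All these counts carry no test, and a match says nothing on whether a factor binds there. Zeb1, which encodes such a factor, had log2 signals of 10.09 in K459 and 10.03 in TCPA18654, against 10.55 in TPC20223 and 10.35 in TPC18645.

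Among the chains of laminin-binding integrins, Itga3 and Itgb4 were lowest in TPC20223 and Itga6 was highest in K459. Itgb4, the beta chain that pairs with α6 in hemidesmosomes, had log2 signals of 9.83 in K459 and 9.61 in TCPA18654, against 7.56 in TPC20223 and 9.67 in TPC18645. Its signal was thus within 0.22 in 3 lines and 4.32-fold lower in TPC20223 than in TPC18645. Itga3, the alpha chain of the laminin receptor α3β1, had 11.26 in K459 and 10.61 in TCPA18654, against 9.20 in TPC20223 and 10.71 in TPC18645. For Itga6, the alpha chain of both α6β1 and α6β4, the values were 12.08 in K459 and 10.27 in TCPA18654, against 10.73 in TPC20223 and 10.27 in TPC18645. This gene went with K459 alone, 3.51-fold above TCPA18654, and TPC20223 kept a signal slightly above that of TPC18645. In TPC20223 the 2 chains of α6β4 therefore did not go together. Itga7, a laminin receptor chain best known from muscle, lay between 7.07 and 7.53 in the 4 lines. Cd151, a tetraspanin that associates with the laminin-binding integrins, had 11.62 in K459 and 11.89 in TCPA18654, against 10.49 in TPC20223 and 12.04 in TPC18645. Among Cd44, Cd151 and Dag1 it was the only gene for which a line stood alone.

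Among the collagen-binding alpha chains, Itga2 and Itga11 differed widely between lines, with Itga2 lowest and Itga11 highest in TPC20223. Itga2, the alpha chain of the collagen receptor α2β1 of epithelia, had log2 signals of 11.71 in K459 and 10.34 in TCPA18654, against 7.88 in TPC20223 and 10.17 in TPC18645. Its spread of 3.83 was the widest of the 32 genes, and it was graded over the lines, with K459 1.37 above and TPC20223 2.29 below the nearest other line. Itga11, the alpha chain of a collagen receptor typical of fibroblasts, had 7.95 in K459 and 6.98 in TCPA18654, against 10.47 in TPC20223 and 7.26 in TPC18645, which is 9.25-fold higher in TPC20223 than in TPC18645. Itga1, whose chain prefers collagen IV, had 9.88 in K459 and 8.55 in TCPA18654, against 9.64 in TPC20223 and 8.87 in TPC18645, so that K459 and TPC20223 lay above both other lines. The dim gene Itga10, a chain known from cartilage, stayed between 6.76 and 7.20.

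Of the chains of RGD-binding integrins, which recognise fibronectin, vitronectin and latent TGF-β, 4 of 7 differed by less than 1 over the lines. Itga5, the alpha chain of the fibronectin receptor, had log2 signals of 9.81 in K459 and 9.64 in TCPA18654, against 11.32 in TPC20223 and 9.77 in TPC18645. Here 3 lines lay within 0.17 of each other and TPC20223 was 2.93-fold higher than TPC18645. Itga8, the alpha chain of the nephronectin receptor and a dim gene, had 5.90 in K459 and 5.77 in TCPA18654, against 7.74 in TPC20223 and 5.61 in TPC18645. Itgb6, the beta chain of the epithelial integrin αvβ6 that activates latent TGF-β, had 6.62 in K459 and 8.46 in TCPA18654, against 5.85 in TPC20223 and 7.84 in TPC18645. Its lines formed a graded order with K459 and TPC20223 at the low end, and it was the 1 gene that was lower in K459 than in TCPA18654 by 1 or more. The other chains of this class differed little: Itgb3 lay between 9.24 and 9.74, Itgb5 between 11.82 and 12.23, and Itgb8 between 8.34 and 8.84. Their partner chain Itgav and the partner of α5 and α8, Itgb1, also showed spreads below 1, of 0.38 and 0.25.

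The chains α4, α9 and β7, which bind VCAM-1, tenascin and related ligands, were mostly dim. Itga9, the alpha chain of a tenascin-C receptor, had log2 signals of 6.96 in K459 and 6.34 in TCPA18654, against 8.72 in TPC20223 and 6.31 in TPC18645. Only the signal of TPC20223 lay above the limit set for dim genes (6.96), so no fold is given for its log2 difference of 2.41 from TPC18645. Itga4, whose cytoplasmic tail is known to bind paxillin, was dim, with 5.65 in K459 and 6.19 in TCPA18654, against 6.28 in TPC20223 and 5.87 in TPC18645. The genotypes overlapped for this gene. Itgb7, known as the partner of α4 on lymphocytes, lay between 6.73 and 7.25.

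The laminin chains showed the same kind of split. Lama5 and Lamb3, chains of epithelial laminins, were lowest in TPC20223, and Lama2 and Lama4, chains known from muscle, nerve and vessel basement membranes, were highest in it. Lama5 had log2 signals of 10.70 in K459 and 10.60 in TCPA18654, against 9.13 in TPC20223 and 10.64 in TPC18645. Lamb3, the beta chain of the laminin that anchors hemidesmosomes, had 8.70 in K459 and 8.78 in TCPA18654, against 6.92 in TPC20223 and 8.98 in TPC18645. In both, 3 lines lay close together, and TPC20223 was below them by 1.47 for Lama5 and by 1.78 for Lamb3. Lama2, the alpha chain of the laminin of muscle and Schwann cells and a dim gene, had 5.83 in K459 and 6.15 in TCPA18654, against 8.65 in TPC20223 and 6.05 in TPC18645. Lama4 had 8.78 in K459 and 6.44 in TCPA18654, against 10.21 in TPC20223 and 6.41 in TPC18645, a log2 difference of 3.80 between TPC20223 and TPC18645. K459 lay between these ends, with a signal 2.34 above that of TCPA18654. As TCPA18654 and TPC18645 lay below the limit set for dim genes, no fold is given.

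Lamb1, the gene of the laminin β1 chain, split the lines in another way. It had log2 signals of 10.35 in K459 and 8.68 in TCPA18654, against 10.24 in TPC20223 and 8.54 in TPC18645, so that each genotype held 1 high and 1 low line. The gene of the hyaluronan receptor Cd44 had the same order of lines, with 11.62 in K459 and 10.64 in TCPA18654, against 11.41 in TPC20223 and 10.54 in TPC18645. K459 and TPC20223 thus lay above both other lines for Lamb1, Cd44, Lama4 and Itga1, although most of their epithelial markers lay at opposite ends. The same held for Itga5, Itga6, Itga8, Itga9 and Itga11 among the genes that differed by 1 or more over the lines. Itgb6, Lamb3 and Cd151 were lower in K459 and TPC20223 than in both other lines. Some gaps were small, as for Itga5, with 9.81 in K459 and 9.77 in TPC18645. The share of all genes with K459 and TPC20223 on the same side of both other lines was not computed. TCPA18654 and TPC18645 also lay close together for genes in general, with a median difference of 0.12, against 0.14 for the 32 genes. This grouping is therefore not shown to be a trait of these genes. Lamc1, the gamma chain of most laminins, lay between 10.49 and 11.14, Lamc3 between 7.69 and 7.86 and Lamb2 between 10.04 and 10.95. The dim genes Lama1 and Lama3 lay between 6.67 and 7.42 and between 6.37 and 6.96. Lama3 is the usual partner of Lamb3, and its dim signal in TPC20223 (6.37) and TPC18645 (6.43) did not share the difference of 2.06 that Lamb3 showed between these lines.

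To ask whether loss of RelA/p65 on top of TGF-α and p53 loss went with a change in these genes, the TPAC lines were set against the TPC lines by limma across all 19938 genes. A call needed an adjusted p no higher than 0.05 together with a log2 difference of at least 0.58. Of the 32 genes, 0 were called (0% of all genes were), and 0 reached an unadjusted p under 0.05 at this difference (84 or 0.421% of all genes did, 38 higher and 46 lower in TPAC lines). The lowest adjusted p of the set was 0.989. The methods' test, a comparison of means gene by gene, also called 0 of the 32 genes and 0 of all genes, with 0 of the 32 at an unadjusted p under 0.05 and this difference (8 of all genes were higher and 7 lower). The mean signal was higher in TPAC lines for 14 genes and lower for 18 (15 and 17 with arrays set to a common median), with a median log2 difference of -0.03 for the 32 genes and 0.02 for all genes. With 2 lines against 2 there are 6 ways to assign the genotypes, so the lowest two-sided p of an exact permutation test is 0.333.

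The signals of the genotypes did not overlap for 5 of the 32 genes (15.6%), 3 higher and 2 lower in TPAC lines, against 27% of all genes (13.7% higher and 13.3% lower), a share below that of all genes. Itga2, described above, was higher in both TPAC lines, with a mean log2 signal of 11.03 ± 0.97 in TPAC and 9.03 ± 1.62 in TPC lines (SD, n = 2 each) and a log2 difference of 2.0 (95% interval -0.81 to 4.81; limma adjusted p = 0.989). Lama3 had log2 signals of 6.96 in K459 and 6.61 in TCPA18654, against 6.37 in TPC20223 and 6.43 in TPC18645, a log2 difference of 0.39 (interval -0.12 to 0.89), and Itgav differed by 0.21 (interval -0.22 to 0.64). Itgb3 was lower in both TPAC lines, with 9.29 in K459 and 9.24 in TCPA18654, against 9.74 in TPC20223 and 9.45 in TPC18645, a log2 difference of -0.33 (interval -0.79 to 0.13), and Itgb1 differed by -0.15 (interval -0.53 to 0.23). Every one of the 32 intervals held 0, and some were wide: for Lama4 the interval was -5.37 to 3.97 and for Itga11 -4.92 to 2.12.

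**Figure D4:**
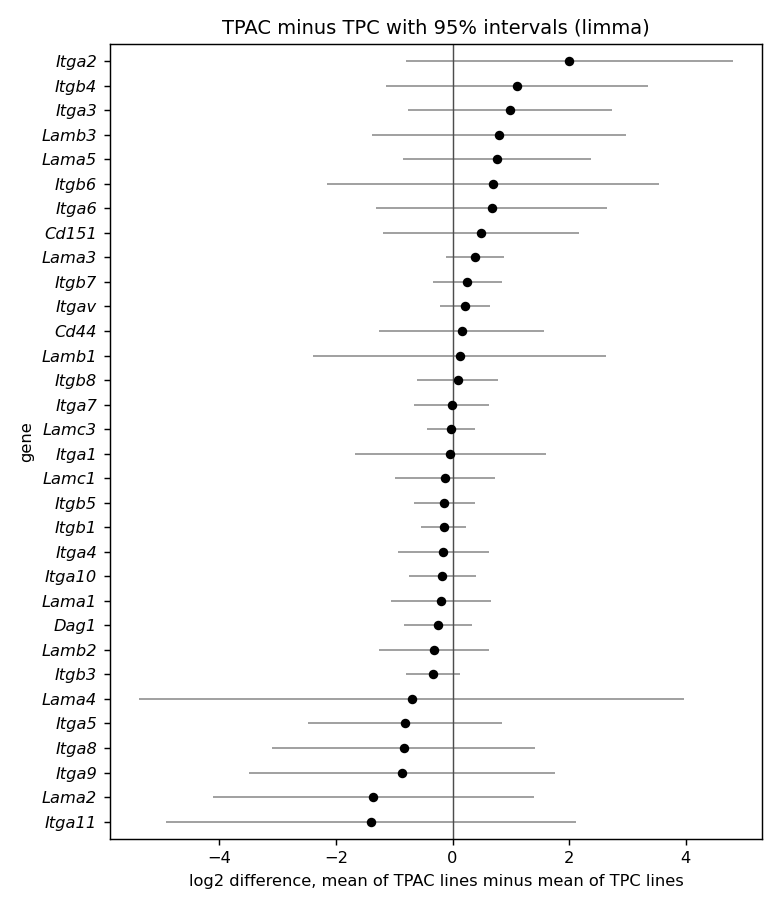
Log2 difference of each of the 32 genes, mean of the 2 TPAC lines minus mean of the 2 TPC lines; points are differences and bars 95% intervals from limma. Every interval crosses 0, and the widest, for Lama4, runs from -5.37 to 3.97.

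The direction of most of these differences rested on single lines. When each line was left out in turn, 12 genes kept their direction and 20 changed it, 14 of them without TPC20223. Without TPC20223 the differences were 0.21 instead of -1.40 for Itga11, 1.20 instead of -0.70 for Lama4 and -0.24 instead of 0.79 for Lamb3. Itga2 kept its direction in every case, with differences of 0.86 to 3.15, and the differences of Itgb4 ran from 0.05 to 2.16. Without TPC18645, that is against TPC20223 alone, 11 of the 32 genes reached an unadjusted p under 0.05 at a log2 difference of 0.58 or more, 6 higher and 5 lower in TPAC lines (of all genes, 1269 higher and 1585 lower), but 0 were called (lowest limma adjusted p of 0.106). In that setting TPC20223 is assumed to vary like the lines of the other genotype.

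Partners of these receptors were taken from lists by function, and none of their genes was called between TPAC and TPC lines by limma. In the list of integrin adaptors and focal adhesion kinases, 7 of 23 measured genes differed by 1 or more over the lines and 1 reached an unadjusted p under 0.05, the gene of the focal adhesion protein zyxin (Zyx, log2 difference -0.74, limma adjusted p = 0.989). Fermt1, the kindlin of epithelial cells, had log2 signals of 11.40 in K459 and 9.93 in TCPA18654, against 5.59 in TPC20223 and 9.58 in TPC18645. This order was that of Itga2. Dab2, an endocytic adaptor of integrins, had 9.21 in K459 and 10.28 in TCPA18654, against 12.23 in TPC20223 and 10.33 in TPC18645, and the talin gene Tln2 was higher only in TPC20223 (9.51, against 7.45 to 7.69 in the other lines). Pxn, the paxillin gene, which was added after its values were seen because the study turns on this protein, had 10.60 in K459 and 10.83 in TCPA18654, against 10.07 in TPC20223 and 10.81 in TPC18645. Of the 8 measured integrin and laminin chains outside the set, only Itgb2, the beta chain of leukocyte integrins, differed by 1 or more, with 6.85 in K459 and 8.27 in TCPA18654, against 6.56 in TPC20223 and 8.35 in TPC18645. The next in spread were the dim genes Itgal, an alpha partner of Itgb2, which lay between 5.99 and 6.29, and Itgb2l, whose lines lay within 0.28 of each other, as did those of Itgad.

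Genes of matrix ligands and of the basement membrane differed over the lines as well. Among 15 basement membrane partners of laminin, 8 differed by 1 or more. Nid2, which encodes a nidogen that links laminin to collagen IV, had log2 signals of 7.93 in K459 and 7.15 in TCPA18654, against 10.95 in TPC20223 and 7.40 in TPC18645. Ntn4, a netrin that binds laminin, had 8.02 in K459 and 9.15 in TCPA18654, against 6.91 in TPC20223 and 9.44 in TPC18645, and Bcam, a receptor of laminin α5, had 9.16 in K459 and 9.20 in TCPA18654, against 7.32 in TPC20223 and 9.63 in TPC18645. Bcam and Lama5 were thus both lowest in TPC20223. Of 9 measured integrin ligands, 3 differed by 1 or more. Tnc, the gene of tenascin-C and a ligand of α9β1, had 8.38 in K459 and 5.72 in TCPA18654, against 12.71 in TPC20223 and 5.53 in TPC18645. Postn, the periostin gene, was also highest in TPC20223 and next highest in K459, with 8.55 in K459 and 5.15 in TCPA18654, against 11.71 in TPC20223 and 5.99 in TPC18645, and Thbs1, the gene of thrombospondin-1, lay between 12.16 and 13.75. Tnc and Itga9, which encodes a chain of a tenascin-C receptor, were thus both highest in TPC20223. Only in this line did Itga9 lie above the limit set for dim genes, and a link between the genes was not tested.

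Hemidesmosome partners and the dystroglycan complex gave a mixed picture. Of 5 hemidesmosome partners 2 differed by 1 or more, and both were higher in TPC20223, in which Itgb4 was lowest. Plec, the plectin gene, had log2 signals of 9.39 in K459 and 9.71 in TCPA18654, against 10.71 in TPC20223 and 9.71 in TPC18645, and Krt14 had 7.85 in TPC20223 and 6.64 to 6.88 in the other lines. Dst, which encodes a further linker to keratin, lay between 10.23 and 10.62. In the list of the dystroglycan complex and its glycosylation, 3 of 9 measured genes differed by 1 or more, and all 3 encode sarcoglycans. Sgce had 11.38 in K459 and 7.22 in TCPA18654, against 11.90 in TPC20223 and 5.98 in TPC18645, so it joined Lamb1 and Cd44 in being high in K459 and TPC20223. Sgcd had 9.82 in TPC20223 and 5.29 to 6.09 in the other lines. Sgcb, with 8.41 in K459 and 8.94 in TCPA18654, against 9.72 in TPC20223 and 9.28 in TPC18645, was the 1 gene of this list with an unadjusted p under 0.05 (log2 difference -0.83, limma adjusted p = 0.989). Dag1 itself, which encodes both subunits of dystroglycan, differed by 0.56 at most between lines.

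**Figure D5:**
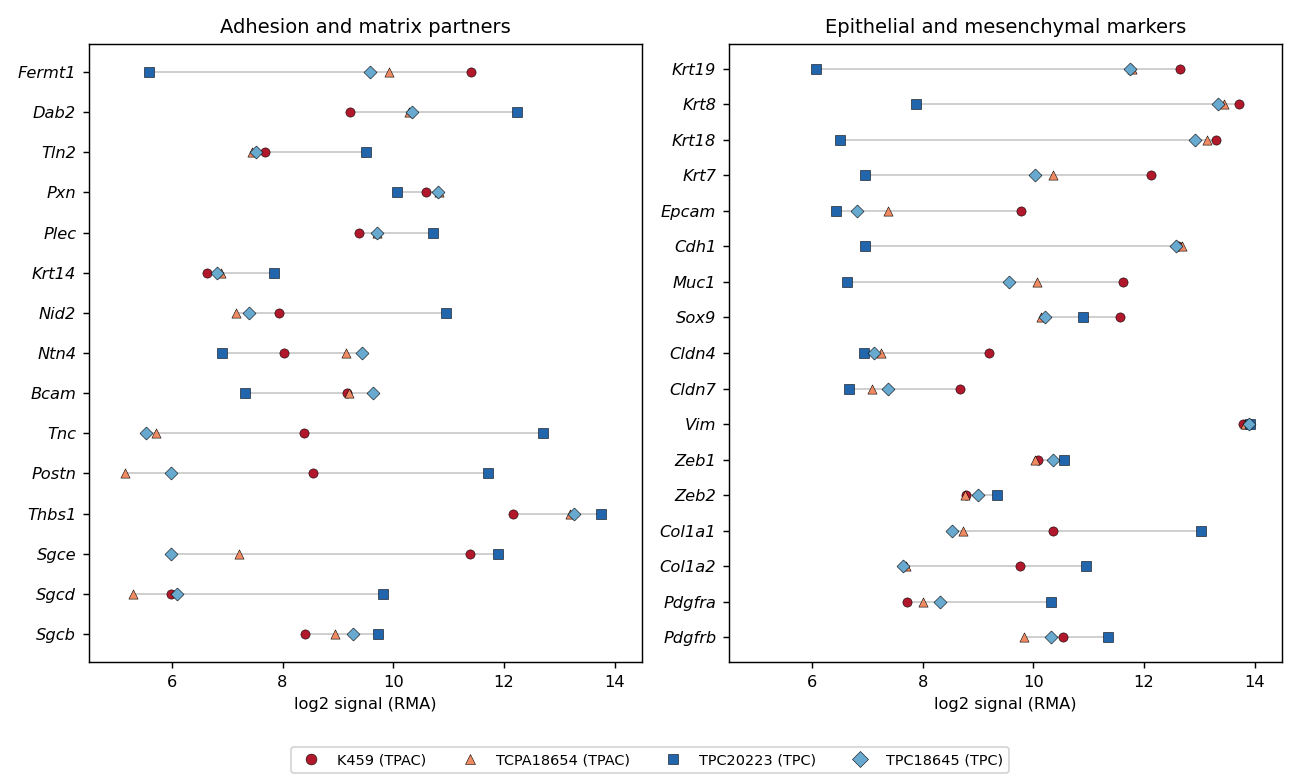
Log2 signal (RMA) of adhesion and matrix partners (left) and of epithelial and mesenchymal markers (right) in the 4 lines, 1 array per line; points are lines, red for TPAC and blue for TPC, and grey bars join the lowest and highest line. Fermt1 and Krt19 are lowest in TPC20223, at 5.59 and 6.08, Tnc is highest there at 12.71, and Vim lies between 13.79 and 13.91 in all lines.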

How the data were processed

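RNA of 2 TPAC and 2 TPC cell lines was measured on Affymetrix Mouse Gene ST arrays, 1 per line. The authors deposited log2 signals made by RMA, which corrects background, gives arrays nearly the same distribution and summarises the probes of a transcript cluster. Per the labels, RMA was run in Affymetrix Expression Console 1.4. A difference in total RNA between lines is lost by this step, and the values carry no detection call. With 2 lines per genotype, precision rests on the count of arrays.

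Of 28941 clusters, 21789 had 1 gene symbol in the platform annotation (1621 had several and 5531 were unnamed). Of these, 21698 matched RefSeq by Entrez number. The brightest cluster stood for each of 19938 genes, with no filter. TPAC and TPC lines, grouped by their titles, were compared by limma 3.58.1 in R 4.3.3 (lmFit and eBayes, two-sided, Benjamini-Hochberg over all genes), and a call took both an adjusted p up to 0.05 and a log2 difference of at least 0.58. Pairs of lines were compared without a test. The methods' test is a two-sided comparison of 2 means, gene by gene. Alternatives were cyclic loess, a common median, averaging the clusters of a gene, dropping genes up to the 40th percentile of mean signal, a trend on intensity, other thresholds and leaving out each line; the spread over lines without TPC20223 was added after seeing the data. The fits were tested on simulated data.

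The genes and lists were chosen with earlier results of these data known. All 32 genes are named. Signals in each line are given for those whose lines differ by a log2 difference of 1 or more, and of each list of partners the 3 genes of widest spread are named, with any called; other names were chosen after their values were seen. Protein sequences were not used here, so motifs in integrin tails were not described.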

Additional observations from a re-analysis of the deposited data

How the results depend on the processing

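Under every alternative that kept all 4 lines, limma called 0 of the 32 genes and 0 of all genes between TPAC and TPC lines. The methods' test was run on the main values only and also called 0 of both. Its lowest adjusted p over all genes was 1.67e-28, so its 0 over all genes rested on the limit of 0.58. Cyclic loess, a common median of the arrays, averaging the clusters of a gene and the filter on dim genes changed the direction of 1 of 121 differences of single genes, that of Itga7, which was 0.005 with a common median instead of -0.015; each of the 32 genes has 1 cluster, so the third of these could not change them. The filter left 25 of the 32 genes. Leaving out each line changed the direction for 20 genes, with log2 differences of TPAC minus TPC that ran over the settings as follows: Cd151 -0.29 to 1.27, Cd44 -0.34 to 0.65, Itga1 -0.71 to 0.63, Itga10 -0.40 to 0.045, Itga11 -3.01 to 0.21, Itga4 -0.43 to 0.12, Itga6 -0.23 to 1.58, Itga7 -0.25 to 0.22, Itga8 -1.91 to 0.23, Itga9 -2.07 to 0.34, Itgb5 -0.30 to 0.005, Itgb6 -0.30 to 1.69, Itgb8 -0.12 to 0.30, Lama1 -0.57 to 0.19, Lama4 -2.60 to 1.20, Lamb1 -0.73 to 0.98, Lamb2 -0.66 to 0.02, Lamb3 -0.24 to 1.82, Lamc1 -0.44 to 0.19, Lamc3 -0.11 to 0.055. The counts of genes that differed between 2 lines by 1 or more stayed within 1.5 times under the same 4 alternatives. With a log2 difference of 0.58 as the limit, 11 genes differed between K459 and TCPA18654, instead of 6, and 1 gene between TCPA18654 and TPC18645, instead of 0. Without TPC20223, 7 of the 32 genes differed by 1 or more over the lines, instead of 17; the cause was not tested. No paired analysis was possible because the labels give no replicate numbers that pair TPAC with TPC lines. The values carry no background level, so differences that involve a dim signal, of the 7 dim genes and of single lines of other genes such as Lama4 and Itga9, may be understated.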
